A study of Drosophila melanogaster with 7 samples.

Results

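The genes described here are all 114 genes that the RefSeq annotation of Release 6, the assembly that dm6 represents, places on chromosome 4 of *Drosophila melanogaster*, out of 17684 genes on the 6 main chromosome arms (X, the arms of chromosomes 2 and 3, and 4). They were chosen by position alone, and 80 of them are protein-coding. A gene was counted as held by a library when a peak covered at least 1 bp of the gene or of its flanks, 500 bp long each. Binding was measured by CUT&RUN, in which an antibody brings a nuclease to its target and the released DNA is sequenced. The peak lists cover 3 libraries of S2, a male embryonic line, with an antibody to CLAMP, 2 libraries of Kc, a female embryonic line, with a CLAMP antibody, and 1 library of each line with control rabbit IgG. Cells of both lines were untreated and grown at 25 °C, and the labels do not tie replicates to separate cultures, so the p-values measure a spread that may be technical.

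Chromosome 4 is the small dot chromosome of the fly, an autosome whose genes lie among repeats in chromatin that carries the heterochromatin protein HP1a and are nevertheless transcribed. The protein POF binds the genes of this chromosome, and the chromosome descends from an ancient X. The zinc-finger protein CLAMP recognises GA repeats and recruits the male dosage compensation complex to the X chromosome, and it also occupies many autosomal sites. The comparison of S2 with Kc asks where CLAMP binding differs between a male and a female line.

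The libraries differed widely from one another on chromosome 4. Of the 8904, 8801 and 5535 peaks of S2 CLAMP replicates 1 to 3, 121, 65 and 64 lay there, and of the 9832 and 8769 peaks of the Kc CLAMP replicates, 20 and 59. Of the IgG peaks, 34 of 1165 in S2 and 14 of 8615 in Kc lay there. Read numbers are not in the lists, so the depth is unknown, and fewer reads and fewer bound sites cannot be told apart. Among the CLAMP libraries, S2 replicate 1 stood apart with the most peaks on chromosome 4 and Kc replicate 1 with the fewest. S2 replicate 3 had weak peaks, with q-values of 0.0001 or less for 31.2% of those on chromosome 4, against 76.3% to 87.7% in the other CLAMP libraries. The title of that library and the name of its list also carry different internal sample numbers.

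In S2 CLAMP replicates 1 to 3 a peak was held by 63, 25 and 25 of the 114 genes. These are 55.3% (95% Wilson interval 46.1 to 64.1), 21.9% (15.3 to 30.4) and again 21.9% of them, against 33.1%, 23.9% and 15.4% of all genes on the main arms. In Kc CLAMP replicates 1 and 2 a peak was held by 8 and 34 genes, 7.02% (3.60 to 13.2) and 29.8% (22.2 to 38.8), against 26% and 25.9% of all genes. With IgG, 20 genes held a peak in S2 (17.5%, 11.7 to 25.6) and 5 in Kc (4.39%, 1.89 to 9.86), against 3.47% and 20.2% of all genes. The Wilson intervals cover counting error only. The highest and the lowest CLAMP value thus belonged to replicate 1 of S2 and replicate 1 of Kc, and Kc replicate 2 lay above S2 replicates 2 and 3, so the lines overlapped.

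With so few libraries, none of the exact tests here could reach the threshold of 0.05, so a test that does not pass decides nothing. A difference between S2 and Kc in the share of chromosome 4 genes with a peak did not pass the test. The mean was 33.0% ± 19.2 for S2 (SD, n = 3) and that for Kc was 18.4% ± 16.1 (SD, n = 2), which leaves 14.6 points (exact two-sided permutation p = 0.6, smallest possible p 0.1, adjusted p = 0.75 by the Benjamini-Hochberg method over the 6 tests made). Without S2 replicate 1 the difference was 3.51 points, and without Kc replicate 1 it was 3.22 points. By peaks, chromosome 4 held 1.36%, 0.739% and 1.16% of the S2 CLAMP lists and 0.203% and 0.673% of the Kc CLAMP lists, so all 3 S2 libraries lay above both Kc libraries. That difference of 0.646 points, from means of 1.08% ± 0.316 (SD, n = 3) and 0.438% ± 0.332 (SD, n = 2), gave an exact two-sided permutation p of 0.2 (adjusted p = 0.6). In the IgG lists the order of the lines was the same, with 2.92% in S2 and 0.163% in Kc.

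In both lines every CLAMP library held more of these genes than the IgG library, but the excess did not pass the test. In S2 the lowest CLAMP library stood at 21.9% and IgG at 17.5%, and in Kc the lowest CLAMP library stood at 7.02% and IgG at 4.39%. The mean excess of CLAMP over IgG of the same line was 14.8 points (exact two-sided permutation within lines, p = 0.167, smallest possible p 0.0833, adjusted p = 0.6). With the 1165 strongest peaks of every list the excess turned to -6.36 points (exact permutation p = 0.25), so its direction changed with the length of the lists.

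**Figure D1:**
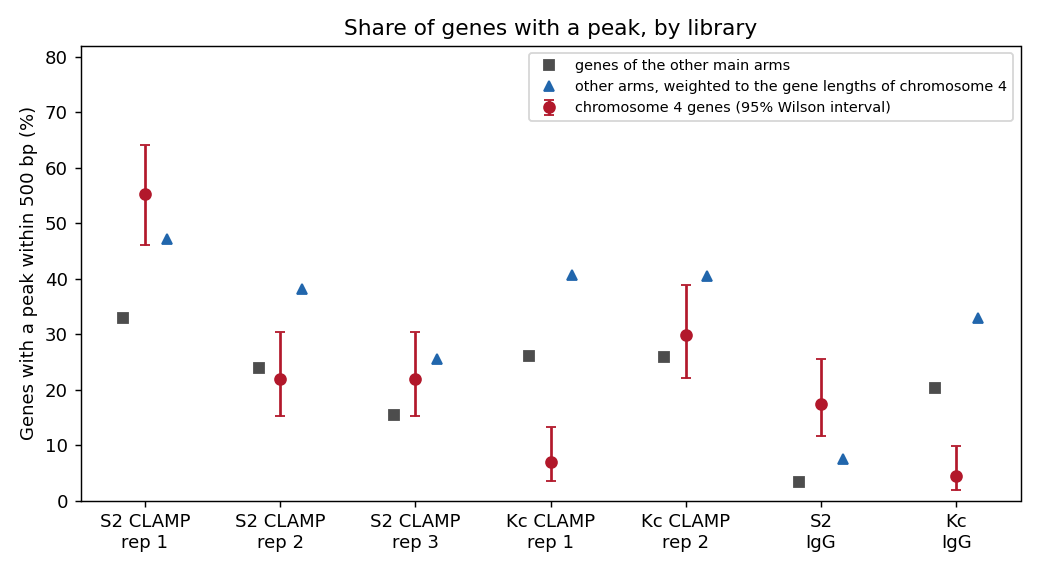
Percent of genes with a peak in the gene or within 500 bp, for each of the 7 libraries: circles are the 114 chromosome 4 genes with 95% Wilson intervals, squares are the genes of the other main arms, and triangles are those genes weighted to the length classes of the chromosome 4 genes. S2 CLAMP replicate 1 stands at 55.3% and Kc CLAMP replicate 1 at 7.02%, and in the S2 IgG library the chromosome 4 genes stand at 17.5% against 3.38% on the other arms.

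Chromosome 4 genes were long, with a median of 6740 bp against 1700 bp on the other arms. The share of genes with a peak on chromosome 4 minus that on the other arms was 22.4, -1.97 and 6.56 points in S2 CLAMP replicates 1 to 3 and -19.1 and 3.96 points in Kc CLAMP replicates 1 and 2. The mean of 2.36 ± 15 points (SD, n = 5) did not pass an exact two-sided sign-flip permutation test over the 5 libraries (p = 0.625, smallest possible p 0.0625, adjusted p = 0.75). Without S2 replicate 1 the mean was -2.63 points. When the other arms were weighted to the same length classes, the differences became 8.21, -16.2 and -3.66 points in S2 and -33.7 and -10.7 points in Kc, with a mean of -11.2 points (exact permutation p = 0.188). Chromosome 4 thus lay below other arms of like gene length in 4 of 5 CLAMP libraries. This weighting was chosen after seeing the data, included the X and was not repeated with autosomal arms alone. Against the other autosomal arms only, without weighting, the mean was 3.27 points (exact sign-flip permutation p = 0.625).

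With IgG the unweighted difference was 14.2 points for S2 and -15.9 points for Kc, and the length-weighted one 10.1 and -28.5 points. Without weighting, the CLAMP differences were on average 1.57 points above those of IgG (exact two-sided permutation within lines, p = 0.917), but the sign changed in 5 of 11 alternatives, to -3.81 points with the length weighting and -9.15 points with equally long lists. The IgG lists of S2 and Kc thus lay on opposite sides of the other arms, while the CLAMP libraries of each line lay on both sides before weighting. The part of this in the CLAMP values was not tested.

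The gaps varied with gene length. Of 28 chromosome 4 genes up to 2 kb, the S2 CLAMP replicates held 25%, 3.57% and 3.57%, against 20.5%, 13.6% and 8.31% elsewhere. The Kc replicates held 3.57% and 7.14% of them, against 14.7% and 14.6%. Only S2 replicate 1 was above the other arms there. Of 39 chromosome 4 genes of 5 to 15 kb, 24, 8 and 5 held a peak in S2 CLAMP replicates 1 to 3, and in Kc replicates 1 and 2 this was so for 2 and 15. These are 61.5%, 20.5%, 12.8%, 5.13% and 38.5%, against 57.1%, 44.7%, 25.2%, 50.6% and 48.9% of the genes of that length elsewhere. Only S2 replicate 1 was above the other arms in that class. Of the 20 genes of 2 to 5 kb, 70%, 15% and 20% held a peak in the S2 replicates, against 38.7%, 24.2% and 14.9% elsewhere. In the Kc replicates it was none and 30.0%, against 28.3% and 27.8%. Of the 27 genes over 15 kb, the S2 replicates held 66.7%, 48.1% and 55.6%, against 66.2%, 64.2% and 52.0% elsewhere. The Kc replicates held 18.5% and 40.7% of them, against 62.4% and 64.5%. In that class S2 replicates 1 and 3 lay at or above the other arms and the other 3 CLAMP libraries below.

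**Figure D2:**
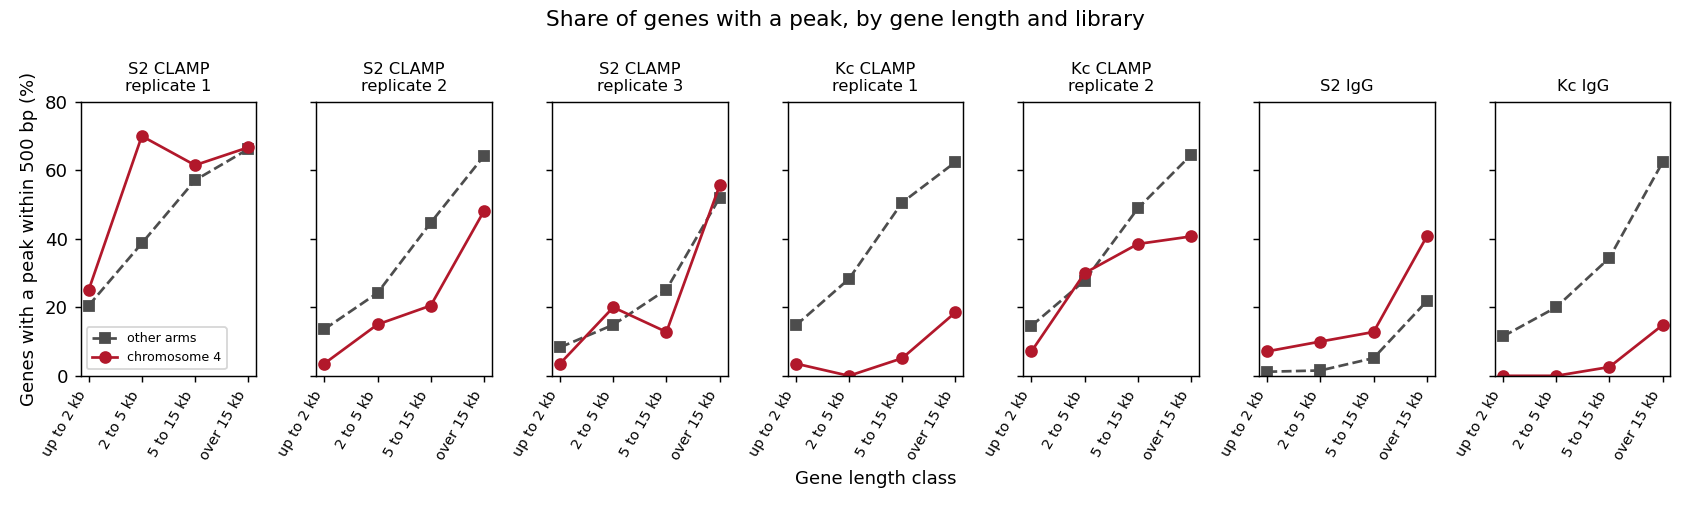
Percent of genes with a peak by gene length class (x axis) in each library, with circles for chromosome 4 and squares for the other main arms; the classes hold 28, 20, 39 and 27 chromosome 4 genes. In S2 CLAMP replicate 1 the 2 to 5 kb genes of chromosome 4 stand at 70.0% against 38.7% elsewhere, and in Kc CLAMP replicate 1 no class of chromosome 4 exceeds 18.5%.

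Few genes were held by all CLAMP libraries, on chromosome 4 as over all genes. No CLAMP library held a peak at 44 of the 114 genes (38.6%, against 51.8% of all genes), and exactly 1 did at 27 (23.7%, against 16.1%). Of these 27 genes, 21 were held by S2 replicate 1, 4 by S2 replicate 3 and 2 by Kc replicate 2. All 5 CLAMP libraries held 6 genes (5.26%, against 6.28% of all genes). All 3 S2 and neither Kc library held 1 gene (0.877%, against 1.05%), and both Kc and no S2 library held none (against 1.54%). The last 3 shares lay near those of all genes or below them. Leaving out Kc replicate 1 raised the count held by all remaining CLAMP libraries to 12, and leaving out S2 replicate 2 or Kc replicate 2 raised the S2-only count to 7.

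Neighbouring genes shared peaks, so the genes are not independent: in S2 replicate 1, 17 of the 121 chromosome 4 peaks lay at several genes, and 18 of the 63 genes held shared peaks only. Of that library's chromosome 4 peaks, 41.3% overlapped a peak of S2 replicate 2, while 52 of the 65 (80%) chromosome 4 peaks of replicate 2 overlapped one of replicate 1, against 65.2% and 69.7% on the other arms. Of the 20 chromosome 4 peaks of Kc replicate 1, 17 (85.0%) overlapped one of Kc replicate 2, but only 15 of the 59 (25.4%) of Kc replicate 2 overlapped one of replicate 1. On the other arms these shares between the Kc libraries were 54.2% and 56.3%. A Kc IgG peak overlapped 10 of the 20 peaks of Kc replicate 1 (50%, against 22.6% on the other arms). For Kc replicate 2 it overlapped 9 of the 59 (15.3%, against 22.7%).

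The genes held by all 5 CLAMP libraries were zfh2, Tdg, Pur-alpha, CG11360, unc-13 and toy. Only Pur-alpha was free of IgG peaks in both lines (0.877% of the 114 genes, against 2.99% of all genes held by all 5 CLAMP and no IgG library). Pur-alpha, at positions 558016 to 567257 of chromosome 4, encodes a nucleic acid binding protein. Its strongest peak had a fold of 5.52, 3.56 and 2.39 over the S2 replicates, and of 3.52 and 3.91 over those of Kc. The fold is the authors' value for a peak and is read here within 1 list only: by fold these peaks stood at percentiles 88.5, 74.5 and 73.6 of the S2 lists and 94.5 and 85.9 of the Kc lists. They belong to a region at 556883 to 559011 that covers the lower end of Pur-alpha, the upper end of Tdg, which encodes a thymine DNA glycosylase, and all of lncRNA:CR43958. All 5 CLAMP libraries held this region and neither IgG library did. Its peaks did not all overlap, however: the peak of S2 replicate 3 lay at 558591 to 558790, inside Pur-alpha, and the strongest of Kc replicate 1 at 557204 to 557664, inside Tdg.

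The gene zfh2 (501810 to 540874) encodes a zinc-finger homeodomain transcription factor of wing development. A region over its lower end, at 501315 to 502126, had a fold of 7.28 in S2 replicate 1, 8.92 in S2 replicate 2, 2.40 in Kc replicate 1 and 5.13 in Kc replicate 2. No peak of S2 replicate 3 lay in it: in that library the strongest zfh2 peak, with a fold of 2.39, lay near the other end of the gene at 540141 to 540341. An S2 IgG peak covers that place (540137 to 540510, fold 46.8). A further region inside zfh2, at 506906 to 508829, was held by all 3 S2 libraries and Kc replicate 2.

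CG11360 (671142 to 690650), known by its locus name only, combined shared and S2-only regions. At 682630 to 683228 all 5 CLAMP libraries held a peak, where the fold was 2.52, 7.81 and 6.01 for S2 and 8.49 and 8.10 for Kc, and Kc IgG held one as well with a fold of 13.5. That IgG peak ranked 94 by p-value among 8615. At 678347 to 679448, inside the same gene, only the S2 libraries held a peak, with folds of 7.01, 7.19 and 2.18, and no IgG peak lay there. A second S2-only region of the gene lay at 671800 to 672598, with folds of 2.13, 2.08 and 1.81.

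The Pax6-type transcription factor gene toy (twin of eyeless, 989725 to 1007922) showed a like mixture. Its region at 999956 to 1000392 had peaks of both Kc libraries and of S2 replicates 2 and 3, and also by Kc IgG. The folds were 2.44 and 2.83 for S2, 3.68 and 2.87 for Kc and 4.55 for Kc IgG. S2 replicate 1 had only a weak peak at the gene, at 989391 to 989762 (fold 2.22, percentile 41.5), where S2 replicate 2 had its strongest one (fold 4.16). The synaptic vesicle priming gene unc-13 (867824 to 912331) held its strongest peaks at different places: at 879228 to 880335 in S2 replicate 1 (fold 6.97) and 879502 to 879977 in Kc replicate 2 (fold 4.63), but near 910003 to 910828 in S2 replicate 2 (fold 3.16) and 910976 to 911319 in Kc replicate 1 (fold 2.72). The peak of S2 replicate 3, at 904094 to 904367 (fold 2.25), lay apart from all of these.

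A peak in 4 of the 5 CLAMP libraries was called at 8 genes (7.02%, against 8.82% of all genes), namely pan, Rnf11, PMCA, Hcf, Mitf, Cadps, gw and lncRNA:CR43958. For the first 6 of these the missing library was Kc replicate 1, and for gw and lncRNA:CR43958 it was S2 replicate 3. Hcf, the gene of host cell factor, a chromatin coregulator, held a peak at its lower end in S2 replicates 1 and 2 and Kc replicate 2, with folds of 5.22, 2.88 and 6.44, while the peak of S2 replicate 3 lay elsewhere, at 372508 to 372707 (fold 2.32). At gw, which encodes the GW182 protein of microRNA silencing, the fold was 4.20 in S2 replicate 1, 4.57 in S2 replicate 2, 1.92 in Kc replicate 1 and 3.37 in Kc replicate 2. Neither Hcf nor gw held an IgG peak.

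At pan, which encodes the TCF factor of Wnt signalling, the strongest peaks of S2 replicates 1 and 3 shared the same borders, 98147 to 98737, with folds of 8.13 and 6.39. The S2 IgG peak with the highest rank by p-value in its whole list lay at the same place (98077 to 98737, fold 26.1), and Kc IgG also had a peak there with a fold of 1.91. In S2 replicate 2 the only pan peak lay at 69409 to 69796 (fold 1.72), and in Kc replicate 2 the strongest lay at 69710 to 70276, where its fold was 3.07. No IgG peak lay at these last places.

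Rnf11 (314923 to 331387), the gene of a RING finger protein, carried many peaks in S2. It held 8, 6 and 9 peaks in S2 CLAMP replicates 1 to 3, none in Kc replicate 1 and 1 in Kc replicate 2. S2 IgG held 4 peaks there and Kc IgG 1. The stretch from 320079 to 328113 held 6 of the 11 S2-only regions of chromosome 4, the last of which also reached the window of PMCA, a plasma membrane calcium pump gene. Their folds ran from 1.53 to 3.39, and 3 of the 6 overlapped an S2 IgG peak, with folds of 2.43 to 2.49.

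**Figure D3:**
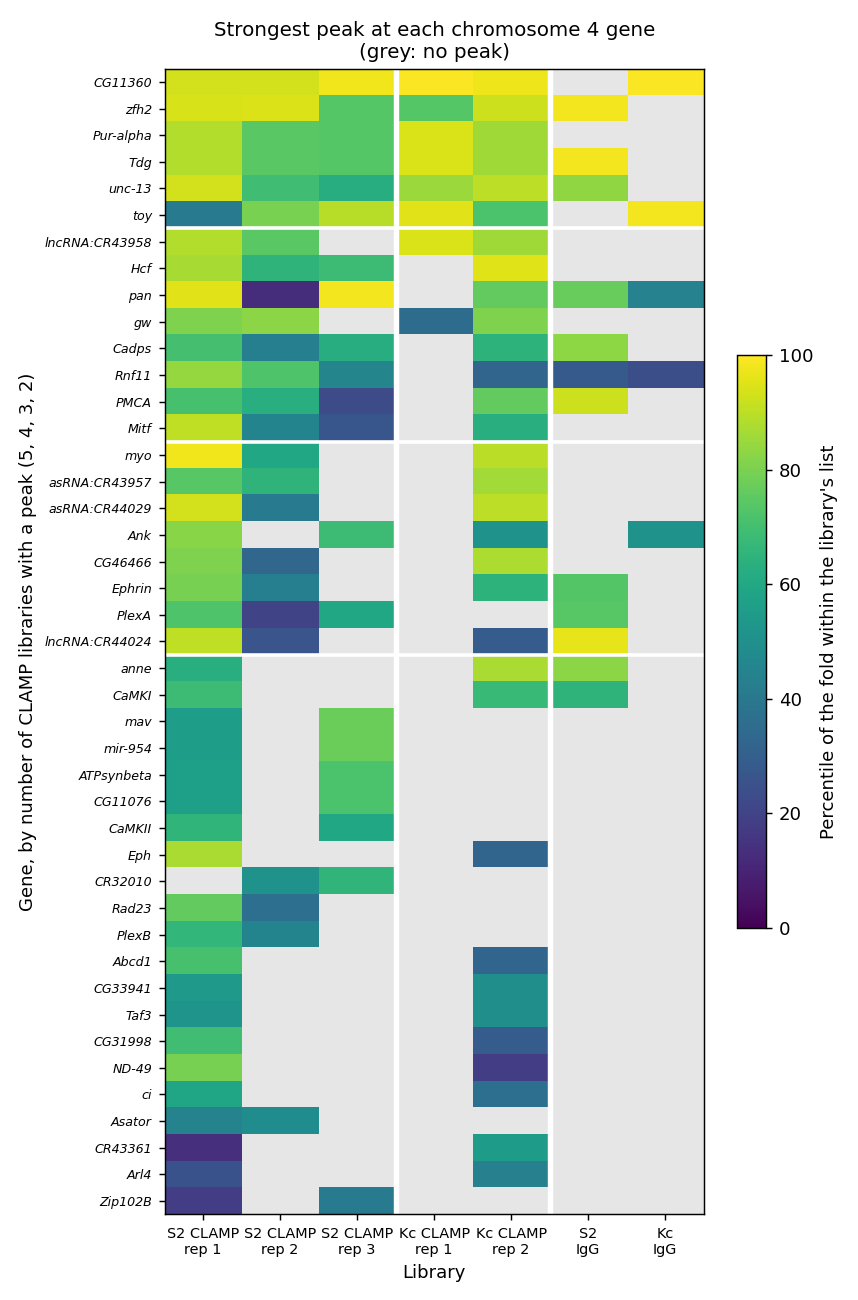
Each row is 1 of the 43 chromosome 4 genes held by at least 2 CLAMP libraries and each column 1 library; colour gives the percentile of the strongest peak's fold within that library's own list, and grey means no peak. Rows run from the 6 genes held by all 5 CLAMP libraries at the top to those held by 2. The Kc CLAMP replicate 1 column is coloured for 8 genes only, all of them within the first 14 rows.

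Of the 18 transcription and chromatin regulators listed on chromosome 4, 12 were held by 1 or more CLAMP libraries, against 70 of all 114 genes, 57 of the 80 protein-coding ones and 48.2% of all genes on the main arms. By library 10, 5 and 7 of the 18 held a peak in S2 and 2 and 7 in Kc, against 3 with S2 IgG and 2 with Kc IgG. The median regulator was held by 1 CLAMP library, as was the median of all 114. Beside zfh2, toy, pan, Hcf and Mitf, few calls recurred. The Hedgehog effector gene ci held peaks in S2 replicate 1 and Kc replicate 2, with folds of 2.73 and 2.06, and so did Taf3, a gene of the general factor TFIID, with folds of 2.48 and 2.26.

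Other regulators held a peak in a single library. The Polycomb group gene pho, which encodes a DNA-binding member of that group, had folds of up to 2.41 in S2 replicate 1. The Wnt coactivator gene lgs and the Mediator gene MED26 were also held by that library alone, with folds of 3.47 and 2.70. The eye selector gene ey and the Pax gene sv were held by S2 replicate 3 alone, with folds of 1.67 and 2.39. The ey peak was among the weakest of its list, at rank 5456 by p-value among 5535 and with a −log10 q-value of 0.6. No CLAMP peak was called at Sox102F, onecut, dati, fd102C, NfI or fuss, and at dati S2 IgG had a peak with a fold of 36.5. Mitf, a gene of lysosomal regulation, held a peak at 1218620 to 1219255 in all 3 S2 libraries and Kc replicate 2, with folds of 1.85 to 2.56. Another Mitf region, at 1198566 to 1199608, had a fold of 5.96 in S2 replicate 1 and 2.46 in Kc replicate 2.

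Among the 12 genes of axon guidance and the synapse, 8 held a CLAMP peak, 8 in S2 and 4 in Kc, beside 57, 56 and 28 of the 80 protein-coding genes. PlexA, which encodes a semaphorin receptor, was the only gene held by all 3 S2 and neither Kc library. Its strongest peaks had folds of 3.43, 1.84 and 2.24, at percentiles 72.4, 20.7 and 60 of their lists, and they did not all coincide: those of replicates 1 and 2 lay near the upper end of the gene, at 1026154 to 1027369 and 1026360 to 1026559, and that of replicate 3 at 1020083 to 1020282. S2 IgG held a peak at PlexA too, at 1023534 to 1023915, apart from the CLAMP peaks. Cadps, a gene of dense-core vesicle release, held peaks in 4 CLAMP libraries, the strongest in each with a fold of 2.20 to 3.31. The receptor gene Eph and its ligand gene Ephrin were held by 2 and 3 CLAMP libraries, and mGluR, Syt7, Gat and Ekar by none.

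Of the 8 genes of ligands and signalling, 6 were held by 1 or more CLAMP libraries, a share near the 57 of 80 protein-coding genes, among them myo, the gene of the TGF-beta ligand myoglianin. A peak near the upper end of myo, at 695331 to 696010, had a fold of 9.76 in S2 replicate 1, 2.64 in S2 replicate 2 and 4.53 in Kc replicate 2. The related ligand gene mav was held by S2 replicates 1 and 3 with folds of 2.60 and 2.47. Of the 8 housekeeping genes, 7 held a CLAMP peak, all of them in S2 replicate 1, which held 52 of the 80 protein-coding genes, while the ribosomal protein gene RpS3A held none in any library. Tdg and gw were the housekeeping genes held by at least 4 CLAMP libraries, and the ATP synthase gene ATPsynbeta was held by S2 replicates 1 and 3. Of the muscle genes, Zyx was held by S2 replicate 1 alone, and bt, at 52075 bp the longest of the 114 genes, by S2 IgG alone. That bt peak was weak, with a −log10 q-value of 1.02.

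Among the noncoding genes, 4 of the 14 lncRNA genes and 6 of the 10 antisense RNA genes held a CLAMP peak. So did 2 of the 7 pseudogenes and 1 of the 2 miRNA genes. Beside these stand 57 of the 80 protein-coding genes, 70 of all 114 genes and 48.2% of all genes on the main arms. Some of the noncoding calls rest on a peak shared with a coding gene, as at lncRNA:CR43958 with Tdg and Pur-alpha and at mir-954 with mav.

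The peaks of the 5 CLAMP libraries, merged where they overlapped, formed 169 regions on chromosome 4. Of these, 99 (58.6%) came from 1 library, against 57.8% of all 19039 regions. All 5 libraries held 7 (4.14%, against 6.57%), all 3 S2 and neither Kc library held 11 (6.51%, against 1.93%), and both Kc and no S2 library held 2 (1.18%, against 4.03%). These region counts were not tested. Of the 11 S2-only regions, 6 are those of Rnf11, 2 lie in CG11360 and 3 beyond the last gene. Both Kc-only regions, at 414150 to 414514 and 1280481 to 1281040, lay away from genes and overlapped a Kc IgG peak. Without S2 replicate 3 the S2-only count was 26, and without Kc replicate 1 the Kc-only count was 13. When only q-values of 0.0001 or less were kept, 6 S2-only regions were left.

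Of the 7 regions shared by all 5 CLAMP libraries, 5 were over 500 bp from any annotated gene, as were 38 of all 169. The like shares on the other arms were not counted. Beyond position 1271759, where the last gene, Cadps, ends, lay 4 of the 7 and 24 of the 169. These 4 were at 1278631 to 1280379, 1286320 to 1287938, 1295022 to 1296869 and 1318008 to 1319558. In the first, S2 replicates 1 to 3 had folds of 7.49, 7.28 and 4.42 and the Kc replicates 5.14 and 6.40, beside 4.09 in S2 IgG and 3.91 in Kc IgG. In the last, the S2 folds were 10.6, 4.96 and 3.03, the Kc folds were 3.52 and 11.1, and no IgG peak lay in it. The fifth region away from genes, at 591751 to 595515, was held by all 7 libraries with folds between 3.28 and 3.92.

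Of the 7, 5 overlapped an IgG peak, as did 1 of the 5 regions of 4 CLAMP libraries, 4 of the 23 of 3, 6 of the 35 of 2 and 3 of the 99 of a single one. The like shares of regions on the other arms were not counted. By genes, all 5 CLAMP libraries held 1111 over all main arms, and 529 of these had no IgG peak, so such overlap was not particular to chromosome 4. The 7 were also wider, with a median of 1749 bp against 246 bp for regions of a single library, and the part of width in these overlaps was not tested. The region over Tdg, lncRNA:CR43958 and Pur-alpha and that at 1318008 to 1319558 were the 2 with no IgG peak.

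The gene-free end beyond Cadps held some of the chromosome 4 peaks of every list. It held 15, 16 and 20 of the chromosome 4 peaks of S2 CLAMP replicates 1 to 3, which are 12.4%, 24.6% and 31.2%, and 6 and 11 of those of the Kc replicates, 30.0% and 18.6%. With IgG it held 5 of 34 in S2 and 6 of 14 in Kc. The last peak of any list ended at 1344588.

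**Figure D4:**
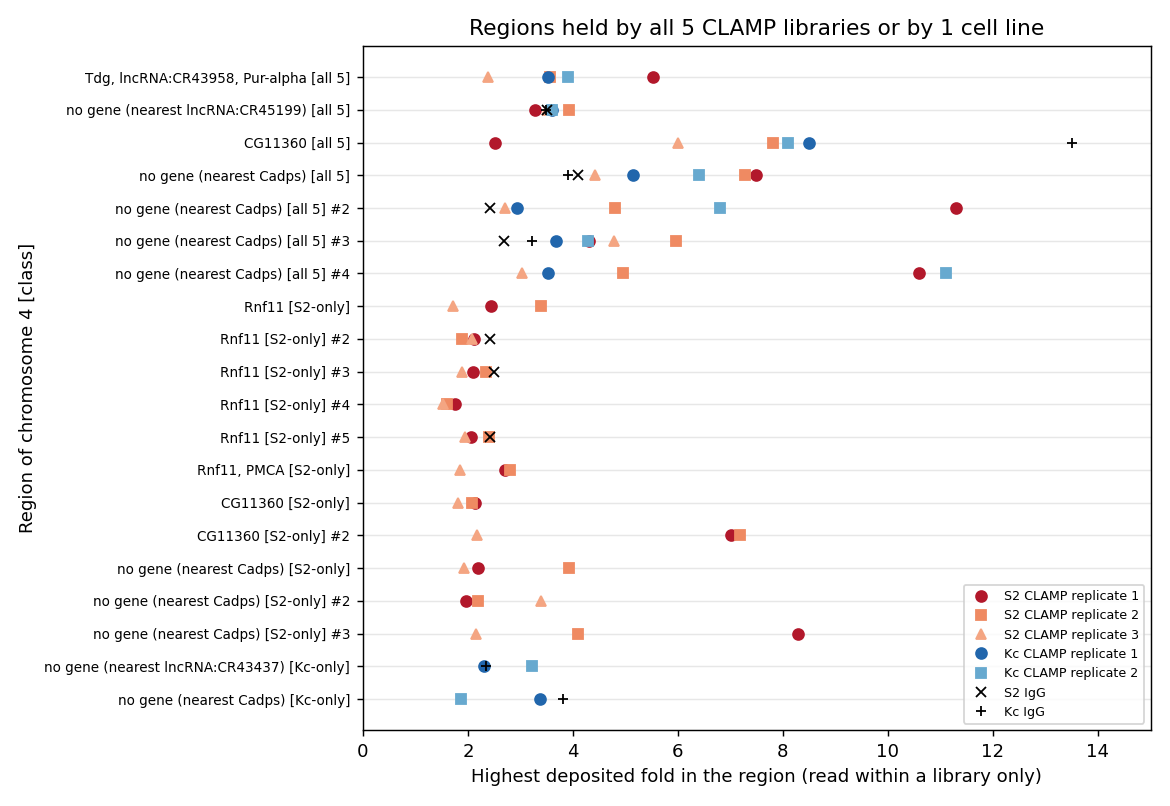
Highest deposited fold (x axis, to be read within a library only) at the 20 chromosome 4 regions held by all 5 CLAMP libraries, by all 3 S2 and neither Kc library or by both Kc and no S2 library, labelled with the genes within 500 bp or the nearest gene; a cross or plus marks an IgG peak. IgG marks stand at 5 of the 7 regions of all 5 libraries, and the 6 Rnf11 rows lie at folds of 1.53 to 3.39.

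The CLAMP summits on chromosome 4 differed in place between libraries. In S2 replicate 1, 40.5% of 121 chromosome 4 summits lay no more than 500 bp from a gene's start or end coordinate, in replicates 2 and 3 16.9% of 65 and 6.25% of 64, and in the Kc replicates 25.0% of 20 and 32.2% of 59. With IgG the shares were 8.82% of 34 in S2 and 7.14% of 14 in Kc. The mean excess of CLAMP over IgG was 16.9 points (exact two-sided permutation within lines, p = 0.333, smallest possible p 0.0833, adjusted p = 0.667), and 6.92 points with equally long lists. S2 replicate 3 lay below its IgG library. On the other arms the CLAMP shares were 38.4%, 24.6%, 18.5%, 24.5% and 29.8% in the same order. The annotation table used gives no strand, so transcription starts and ends were treated alike.

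The S2 IgG list held a kind of peak with a high fold on chromosome 4. Of its 34 peaks there, 17 had a fold of 10 or more, between 11.1 and 46.9, with a median width of 377 bp. Among CLAMP libraries 2 of 121, none of 65, none of 64, none of 20 and 1 of 59 chromosome 4 peaks reached that fold. On the other arms 1.98%, 3.97%, 1.1%, 0.459% and 1.27% of their peaks did. The fold is read within 1 list only, so a like fold in different lists need not mean like strength. Of the 17, 16 lay at a member gene, beside 23 of all 34, and a preference for genes was not tested. A peak of any CLAMP library overlapped 5 of the 17 and 84 of the 464 such S2 IgG peaks on the other arms. Those at member genes were spread over 16 genes, among them pan, zfh2, Tdg, PMCA, Ephrin, unc-13, PlexA, Cadps, eIF4G1 and dati. The kind was not particular to chromosome 4, since these 464 made up 41.0% of the 1131 S2 IgG peaks on the other arms, with the same median width of 377 bp. In all, both IgG libraries held a peak at 2 of the 114 genes, pan and Rnf11 (1.75%, against 1.84% of all genes). Of the 70 genes with a peak of 1 or more CLAMP libraries, 53 had none of IgG. For the 70 of 114, the share over all genes was 48.2%. For the 53, the like share over all genes was not counted, so they cannot be read as a trait of chromosome 4.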

How the data were processed

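Per the labels' protocols, each library took 1 ng of CUT&RUN DNA through 14 PCR cycles and was sequenced as pairs of 25 bp reads. Build dm6 and the tools Bowtie2, MACS2, Trimmomatic and FastQC appear in the submitters' processing notes. Their versions and settings, duplicate removal and any control in peak calling are not given in the sources used here. For every library the authors deposited 1 narrowPeak list, without pooling. The deposited score was not needed, since it only repeats the −log10 p-value, rounded down after multiplying by 10. As the ratio of summit signal to the caller's background the authors deposited a fold, and the deposited −log10 p-value and q-value belong to the summit.

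Where several rows of a list gave the same interval, only the strongest summit was kept. Genes came from the RefSeq table of Release 6. Regions are the merged union of the CLAMP peaks. S2 and Kc were compared over all 10 splits of the 5 CLAMP libraries (exact permutation), CLAMP with IgG by permuting within lines, and chromosome 4 with other arms by sign flips, in Python 3.11.15 with NumPy 2.4.6 and SciPy 1.17.1. The smallest p that these exact tests allow is 0.0625, above the threshold of 0.05. Counting and tests were checked on simulated peaks. Length classes were split at 2, 5 and 15 kb. Members, gene lists, named genes and tests were chosen with earlier results of these data known: named were genes held by all 5, by 1 line or by both IgG libraries, every regulator, up to 4 genes of each other list by strength and those at the strongest regions, and others after their values were seen. The 48 listed genes all lay on chromosome 4. A genome sequence was not used here.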

Additional observations from a re-analysis of the deposited data

How the results depend on the processing

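The signs of the S2 minus Kc differences in gene share and peak share held under all alternatives tried, leaving out each CLAMP library included, where they ran from 3.22 to 26.0 points and from 0.412 to 0.881 points. With a replicate block over the numbers 1 and 2 they were 20.2 points and 0.611 points (exact sign-flip p = 1 and 0.5). Deviations over the 114 genes correlated at -0.256 for number 1 and 0.0467 for number 2. With only 2 Kc libraries, the deviations of one mirror those of the other. These values therefore cannot decide whether the numbers pair the libraries. The CLAMP excess over IgG in gene share ran from 9.06 to 20.5 points without single CLAMP libraries and was -6.36 with equally long lists. The chromosome 4 minus other arms difference in CLAMP ran from -2.63 to 7.72 points without single libraries, and was -11.2 weighted by gene length. Its excess over IgG ran from -4.19 (without Kc replicate 2) to 7.33 and was -1.77 without S2 replicate 1, -2.62 at a q-value of 0.0001 or less, -9.15 with equally long lists (exact permutation p = 0.0833, the smallest possible) and -3.81 weighted by gene length. The gene-end excess ran from 12.1 to 20.7 points without single CLAMP libraries and was 6.92 with equally long lists and 11.9 at 200 bp from a gene end.

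Genes held by all 5 CLAMP libraries numbered 6 to 12 without single libraries and 2 at a q-value of 0.0001 or less. The S2-only genes numbered 1 to 7 without single libraries and 2 with peaks overlapping IgG set aside, and the Kc-only genes 0 to 2. Regions of all 5 numbered 7 to 9 without single libraries, S2-only regions 11 to 26 and 6 at a q-value of 0.0001 or less, and Kc-only regions 2 to 13. The cause of these changes was not tested, except that leaving out a library leaves fewer lists that must agree. The length weighting, the autosome comparison and the region alternatives were chosen after seeing the data. The depth is unknown.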
